A study of Bos taurus with 17 samples.

Results

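Sphingomyelin and ceramide enzymes were followed in cow cumulus cells, the somatic cells that surround the oocyte, through 10 genes: SPTLC1, SPTLC2, SAMD8, SGMS1, SGMS2, SMPD1, SMPD2, ASAH1, SPHK1 and UGCG. They were found on the Agilent bovine array as the non-control probes that carry one of these names, or that carry a LOC number belonging to the gene or described by its full name. This gave 12 probes among the 21475 non-control probes of the array, and 10 of the 12 were among the 13865 valid probes, those detected on 80% or more of the arrays at every stage. These 10 valid probes represented 9 of the 10 genes, with UGCG measured by 2 probes and SPTLC2 not measured by its own probes.

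The series compared 3 stages of oocyte developmental competence, with 1 array per sample. NC1 cells came from 6 prepubertal calves aged 3 to 6 months, whose oocytes were in prophase I and labelled developmentally incompetent (incompetent or poorly so in the study's own wording). C1 cells came from 6 adult cows of various ages, whose oocytes were in prophase I and developmentally competent. Both were taken after slaughter, NC1 from follicles of 3 to 6 mm and C1 by the same procedure, and only complexes with a compact cumulus were used. C2 cells came from 5 non-lactating Holstein cows aged 3 to 5 years, whose oocytes were in metaphase II. These cows had been synchronised with a progestagen implant, superovulated with FSH/LH and given prostaglandin, and complexes with an expanded cumulus were taken from follicles of more than 8 mm by ovum pick up 60 h later. No animal carried a transgene or deletion. From NC1 to C1 the age of the animals changed along with the stage, and from C1 to C2 so did the size of the follicles, the hormones given and the mode of collection, so that their parts cannot be told apart.

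Sphingolipids are membrane lipids built on ceramide. Ceramide is made in the endoplasmic reticulum from serine and palmitoyl-CoA, turned into sphingomyelin or glucosylceramide in the Golgi, and released again by sphingomyelinases. Ceramidases split it into sphingosine, which sphingosine kinases phosphorylate into a signalling lipid. In the ovary, ceramide is known as a mediator of cell death and sphingosine 1-phosphate as a survival signal for follicular cells and oocytes.

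The synthase family was read by probes with little in common, as their starts show. The first 30 of the 60 bases of each probe are given for the 3 synthase-family members, which were compared with each other, and for both UGCG probes, which are separate measurements of a single gene.
SAMD8: acgttttgactatttgcctattgaacttaa
SGMS1: aggaaggtttggtaactttgggttttgtaa
SGMS2: ccaaagaacatgctactccttccttattct
UGCG, brighter probe: tatcacatgtatgttttggtatctgttctt
UGCG, second probe: tggagggaatggccgtcttcgggttcgtcc
Over their full 60 bases, the probes of SAMD8 and SGMS1 shared no run longer than 7 bases on either strand, and the UGCG probes no run longer than 6. The longest run shared by any pair of the valid probes used here was 11 bases.

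All levels are log2 scaled signals, in which 0 is the signal of the median probe of the same array, so that they compare arrays and not genes. In the 17 arrays, 66 to 82.7% of the probes were detected and no spot was saturated. Cumulus and granulosa markers were valid for 11 of 12 genes, and 7 of the 11 were lower at C2 than at C1 by the limma test described next. Of 5 valid cumulus expansion markers, 4 were higher at C2 than at C1. Of all valid probes, 12.8% were lower and 15.3% higher in that comparison. Among the C2 arrays, replicates 1 and 5 lay close to each other, as did replicates 3 and 4, with an SD of the log2 difference over all valid probes of 0.444 and 0.512, against 1.05 to 1.27 for the other pairs. No source says whether close arrays share an animal or a collection day. C2 replicates 1, 2 and 5 were scanned on the first of 2 days and replicates 3 and 4 on the second. Among the C2 arrays alone, scan day and the split between these close pairs thus cannot be told apart. NC1 and C1 each had 3 arrays on either day, and the same SD was 0.43 to 0.69 between NC1 arrays and 0.45 to 0.76 between C1 arrays. The part of scan day in the C2 split was not tested. Differences at C2 can come from a change in the RNA of each cell or in the proportion of cell types, which whole samples do not separate.

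At C2, 4 of the 9 measured genes were higher than at C1 by limma with Benjamini-Hochberg adjusted p under 0.01, namely SAMD8, ASAH1, UGCG and SPHK1, and none was lower. In the same comparison 28.1% of all valid probes passed the test in either direction with 15.3% higher and 12.8% lower. Against NC1, 3 genes were higher, namely SAMD8, ASAH1 and UGCG, with 28.1% of all valid probes past the test, 15.5% higher and 12.6% lower. Both comparisons use the same 5 C2 arrays. The median change of the 9 genes was 1.45 (log2) against C1 and 0.73 against NC1, beside 0.02 and 0.11 over all valid probes. Between C1 and NC1 none of the 9 genes passed the threshold in limma and 1, SPHK1, had an unadjusted p under 0.05, where 0.0577% of all valid probes passed the first and 9.84% the second. The test across the 3 stages, limma's moderated F, called SAMD8, ASAH1 and UGCG, beside 28.6% of all valid probes.

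**Figure D1:**
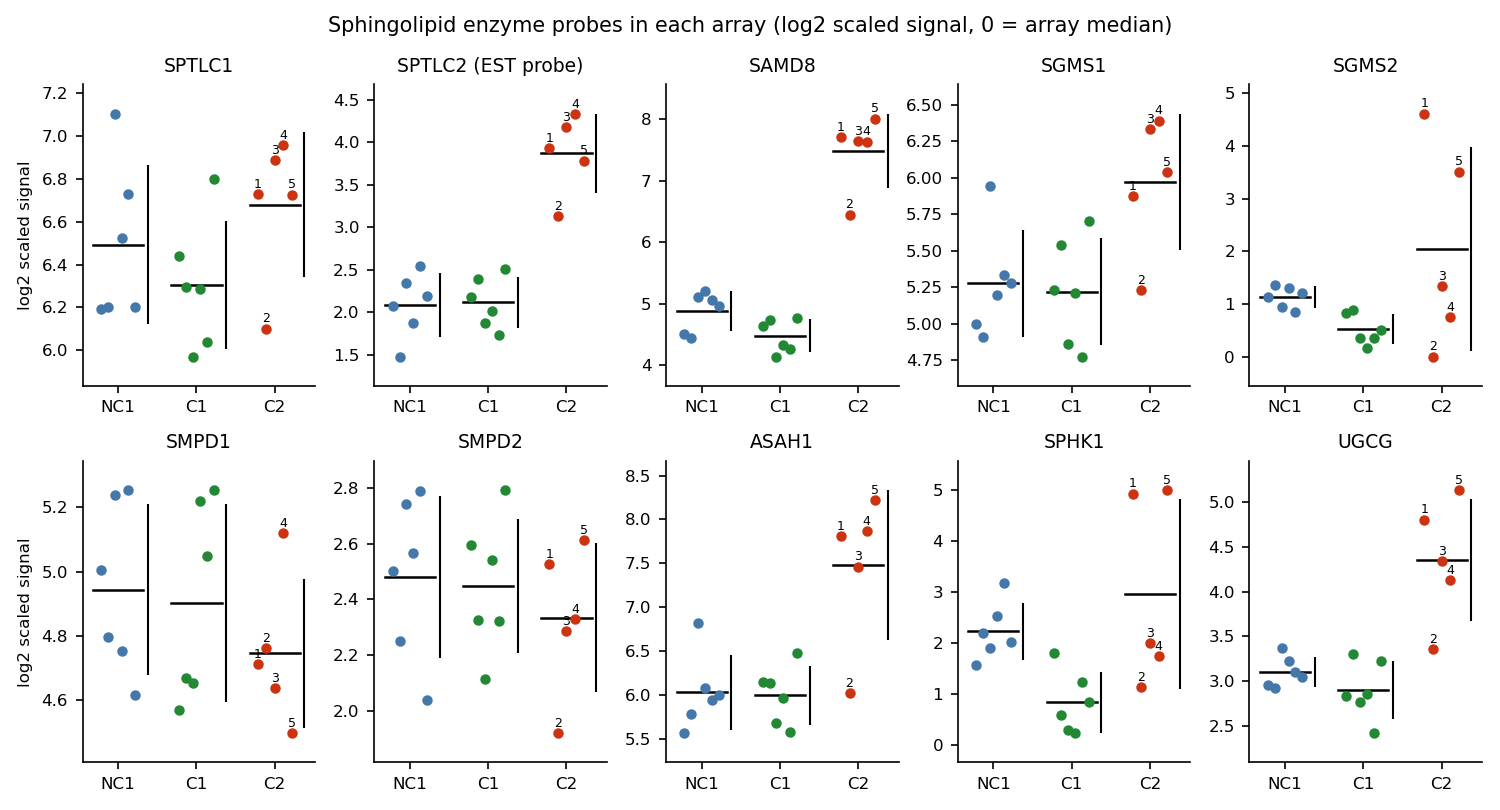
Log2 scaled signal (y axis, 0 is the array median) of the brightest valid probe of each gene in every array, by stage (x axis), with horizontal lines at the stage mean, vertical bars of 1 SD and the C2 points numbered by replicate. The 5 C2 points of SAMD8 lie between 6.45 and 8.01, above the 12 other arrays, while C2 replicates 1 and 5 alone are high for SGMS2 and SPHK1. SPTLC2 is shown by a probe of an expressed sequence tag.

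SAMD8, an endoplasmic reticulum protein of the sphingomyelin synthase family that makes ceramide phosphoethanolamine and is thought to sense ceramide, changed most. Its log2 scaled signal ranged from 4.44 to 5.21 with a median of 5.01 in the 6 NC1 arrays, and from 4.14 to 4.77 with a median of 4.49 in the 6 C1 arrays. The C2 arrays read 7.71, 6.45, 7.64, 7.64 and 8.01 in replicates 1 to 5. All C2 arrays were above all arrays of both other stages, and C2 replicate 2 was the lowest of them. The NC1 mean was 4.88 ± 0.33 (SD, n = 6), the C1 mean 4.48 ± 0.27 (SD, n = 6) and the C2 mean 7.49 ± 0.60 (SD, n = 5). SAMD8 was thus 8.03-fold higher at C2 than at C1, a difference of 3.01 ± 0.25 (log2, SE) with a limma adjusted p of 3.26e-08. Against NC1 it was 6.09-fold higher, with a limma adjusted p of 1.9e-07. The C2 and C1 arrays of 21.6% of all valid probes did not overlap, and 20.9% for C2 and NC1. Ordered by the size of the rise against C1, SAMD8 stood at place 258 of the 13865 valid probes. C1 and NC1 differed by -0.40 (limma adjusted p = 0.625), with a 95% confidence interval from -0.89 to 0.09. The study singled out a group of orthologs, under the name sphingomyelin synthase 1, for its profile at C2, and the cow gene it lists for that group is SAMD8 and not the gene SGMS1. Since that choice was made on these arrays, the p of SAMD8 is not independent evidence.

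Within each of the 5 slides that held all 3 stages, SAMD8 was higher in the C2 array than in the C1 array, by 2.18 to 3.50 (log2), and than in the NC1 array, by 2.01 to 3.20. On the first scan day the difference from C1 was 2.83 and on the second 3.23, with 3 and 2 C2 arrays. SAMD8 stayed past the threshold in all 31 alternatives for either comparison.

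Neither of the sphingomyelin synthases proper passed the threshold in the main fit, though both did under some alternatives. SGMS1, which makes sphingomyelin in the Golgi, ranged from 4.91 to 5.94 with a median of 5.24 at NC1 and from 4.77 to 5.71 with a median of 5.22 at C1. At C2 it read 5.88, 5.23, 6.33, 6.39 and 6.04 in replicates 1 to 5. Replicate 2 lay inside the range of the other stages, and the other 4 lay above all C1 arrays. The difference from C1 was 0.75 ± 0.24 (log2, SE), or 1.68-fold, with a limma adjusted p of 0.0179, which missed the threshold of 0.01. The difference from NC1 was 0.70 with a limma adjusted p of 0.0273. Without C2 replicate 2, SGMS1 passed the threshold against C1, with a difference of 0.94 and a limma adjusted p of 0.00282. It also passed against C1 with 75th percentile scaling, at a limma adjusted p of 0.00334. SGMS1 passed in 5 of 31 alternatives against C1 and in 5 of 31 against NC1. Among those against NC1 were leaving out C2 replicate 2 (0.88, limma adjusted p = 0.0045) and 75th percentile scaling (0.55, limma adjusted p = 0.00817).

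The gap between SAMD8 and SGMS1 within each array was larger at C2. The rise of SAMD8 exceeded that of SGMS1 by 2.25 (log2) against C1, or 4.77-fold, and by 1.91 against NC1, or 3.76-fold. All 5 C2 arrays had a larger gap than every C1 and every NC1 array. The 2-sided exact permutation test over arrays gave p = 0.00433 for each, the smallest p that 5 arrays against 6 allow, and 0.00649 after Benjamini-Hochberg adjustment over the 6 gaps tested here. The same 5 C2 arrays enter both, and since both changes were known when the gap was chosen, its p is not independent evidence either. The 6 gaps include those of SPTLC1 less SPTLC2 by the tag probe described below, which was chosen with its values known. The adjusted p thus rests partly on those gaps.

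SGMS2, the sphingomyelin synthase of the plasma membrane, separated the C2 arrays from each other. It ranged from 0.85 to 1.36 with a median of 1.18 at NC1 and from 0.17 to 0.89 with a median of 0.44 at C1. The C2 arrays read 4.61, -0.00026, 1.35, 0.75 and 3.51 in replicates 1 to 5. Replicates 1 and 5 were far above every other array, replicate 2 was below all of them, and replicates 3 and 4 lay within the range of the other stages. The SD at C2 was 1.94 against 0.20 at NC1 and 0.29 at C1. The difference from C1 was 1.52 ± 0.57 (log2, SE) with a limma adjusted p of 0.0414, and that from NC1 was 0.91 with a limma adjusted p of 0.222. Without C2 replicate 1 the first of these was 0.88, and without replicate 2 it was 2.03 with a limma adjusted p of 0.00419, past the threshold. The difference from NC1 was 0.27 without C2 replicate 1, 0.54 without replicate 5, 1.42 without replicate 2 and -0.10 on scan day 2, and passed the threshold in none of these. Scan day 2 held replicates 3 and 4 as its only C2 arrays. With array weights SGMS2 passed in limma against C1, at 2.33 (adjusted p = 0.000718), and against NC1, at 1.68 (adjusted p = 0.00933). The weights were 0.87 and 0.93 for C2 replicates 1 and 5, and 0.28, 0.37 and 0.32 for replicates 2, 3 and 4. That fit thus leaned most on the C2 arrays in which SGMS2 was high.

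**Figure D2:**
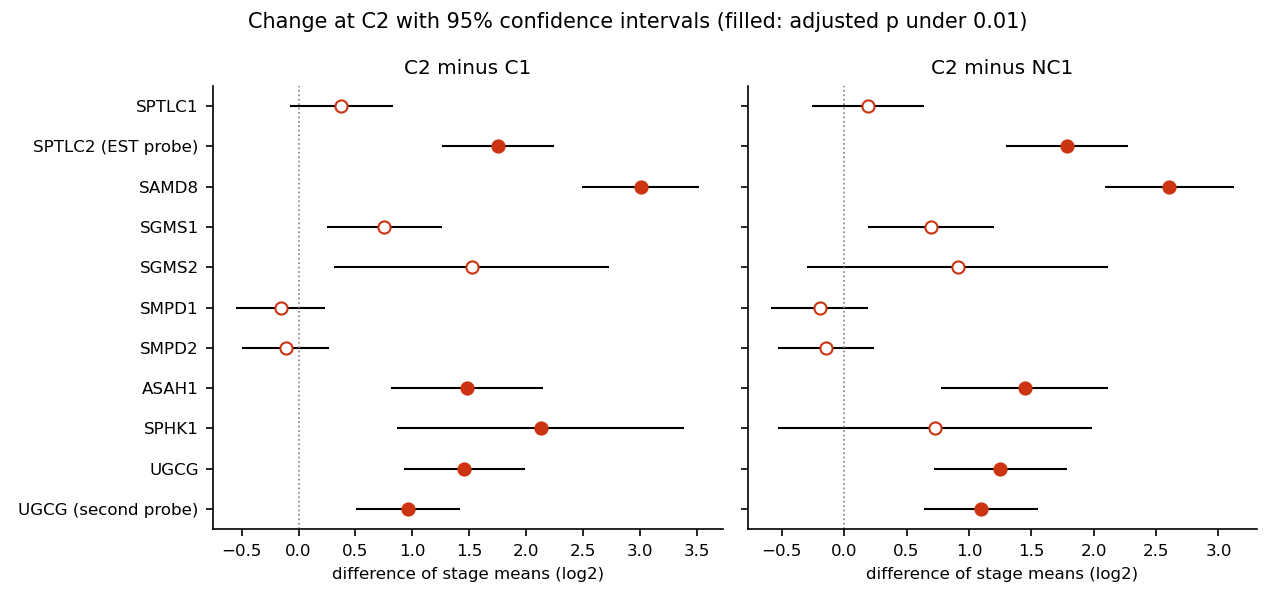
Difference of stage means (x axis, log2) of the valid probes (y axis), C2 minus C1 on the left and C2 minus NC1 on the right, with 95% confidence intervals that are not adjusted for the number of probes and filled points where the limma adjusted p is under 0.01. SAMD8 lies furthest right in both panels, at 3.01 and 2.61, and the intervals of SMPD1, SMPD2 and SPTLC1 include 0.

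For the sphingomyelinases, which return sphingomyelin to ceramide, no difference between stages passed the test. SMPD1, the acid enzyme of lysosomes, ranged from 4.62 to 5.25 with a median of 4.90 at NC1 and from 4.57 to 5.25 with a median of 4.86 at C1, and read 4.71, 4.76, 4.64, 5.12 and 4.50 in C2 replicates 1 to 5. SMPD2, a neutral enzyme, ranged from 2.04 to 2.79 with a median of 2.53 at NC1 and from 2.12 to 2.79 with a median of 2.43 at C1, and read 2.53, 1.92, 2.29, 2.33 and 2.61 at C2. The arrays of the 3 stages overlapped for both. The 95% confidence interval of the difference between C2 and C1 ran from -0.55 to 0.23 (log2) for SMPD1 and from -0.50 to 0.27 for SMPD2, with limma adjusted p of 0.53 and 0.647. Their gap within arrays did not move beyond its spread either, by -0.04 against C1 (exact permutation p = 0.844, also after adjustment over the 6 gaps).

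ASAH1, the acid ceramidase of lysosomes that splits ceramide into sphingosine and a fatty acid, rose at C2. It ranged from 5.57 to 6.82 with a median of 5.97 at NC1 and from 5.58 to 6.48 with a median of 6.05 at C1. The C2 arrays read 7.81, 6.03, 7.46, 7.87 and 8.22 in replicates 1 to 5. Replicates 1, 3, 4 and 5 were above all arrays of the other stages and replicate 2 lay among them. The rise was 2.79-fold against C1, at 1.48 ± 0.32 (log2, SE) with a limma adjusted p of 0.00116, and 2.72-fold against NC1, with a limma adjusted p of 0.00146. With the close C2 arrays averaged into 3 samples it missed the threshold, at a limma adjusted p of 0.0145 against C1 and 0.0173 against NC1. Within scan days the difference from C1 was 1.28 and 1.74, and with the arrays of scan day 1 alone ASAH1 missed the threshold, at a limma adjusted p of 0.104 against C1 and 0.0487 against NC1. In that fit only 9.82% of all valid probes passed against C1 and 10.1% against NC1, and ASAH1 differed from NC1 by 1.59.

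SPHK1, a kinase that turns sphingosine into sphingosine 1-phosphate, repeated the split of the C2 arrays seen for SGMS2. It ranged from 1.58 to 3.17 with a median of 2.11 at NC1 and from 0.23 to 1.81 with a median of 0.71 at C1. The C2 arrays read 4.93, 1.14, 1.99, 1.74 and 5.00 in replicates 1 to 5. Replicates 1 and 5 were above every other array, while the other 3 lay within the range of the NC1 and C1 arrays together. The difference from C1 was 2.13 ± 0.60 (log2, SE), or 4.37-fold, with a limma adjusted p of 0.00843. That call was lost in 18 of 31 alternatives, among them leaving out C2 replicate 1 (1.63, adjusted p = 0.026) or replicate 5 (1.62, adjusted p = 0.026), and 75th percentile scaling (adjusted p = 0.0133). The difference from NC1 was 0.73 with a limma adjusted p of 0.355. It was 0.24 without C2 replicate 1, 0.22 without replicate 5, 1.19 without replicate 2 and -0.28 on scan day 2, and passed the threshold in none of these. Scan day 2 held replicates 3 and 4 as its only C2 arrays. SPHK1 was the only one of the 9 genes with an unadjusted limma p under 0.05 between C1 and NC1, at 0.025 for a difference of -1.40, and 0.401 after adjustment over all valid probes. On the arrays of scan day 2 alone that difference was -1.78 and passed the threshold, with a limma adjusted p of 0.00599. There 0.159% of all valid probes passed between C1 and NC1. This was the only 1 of 31 alternatives in which it passed.

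The C2 arrays also differed in marker genes of other cells. The summed signal of 8 valid leukocyte markers (log2) was 5.27, 2.44, 4.27, 4.36 and 5.72 in C2 replicates 1 to 5, against 2.27 to 3.13 in the C1 arrays and 2.85 to 4.42 in the NC1 arrays. It was highest in the replicates 1 and 5 that were high for SGMS2 and SPHK1, and lowest in replicate 2. Of these 8 genes, 4 were higher at C2 than at C1, beside 15.3% of all valid probes. Against NC1 only 1 of the 8 was higher, beside 15.5%. PTPRC, a defining leukocyte gene, has no probe among those matched. The summed signal of 11 cumulus and granulosa markers was 10.4, 11.5, 12.3, 12.4 and 10.3 in C2 replicates 1 to 5. It was 11.95 to 12.57 at C1, so that this sum was lowest in C2 replicates 1 and 5. A sum follows the brightest genes most. The mean log2 scaled signal of the same 11 genes was 3.73 to 5.36 at C2, and thus below all C1 arrays, at 6.65 to 7.08. The endothelial sum of 6 valid genes read 1.55 to 3.54 at C2 and 0.72 to 1.03 at C1. Its defining genes CDH5 and EMCN were detected on no array, and the 1 called higher was KDR. The part of these cells in the enzyme levels was not tested.

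**Figure D3:**
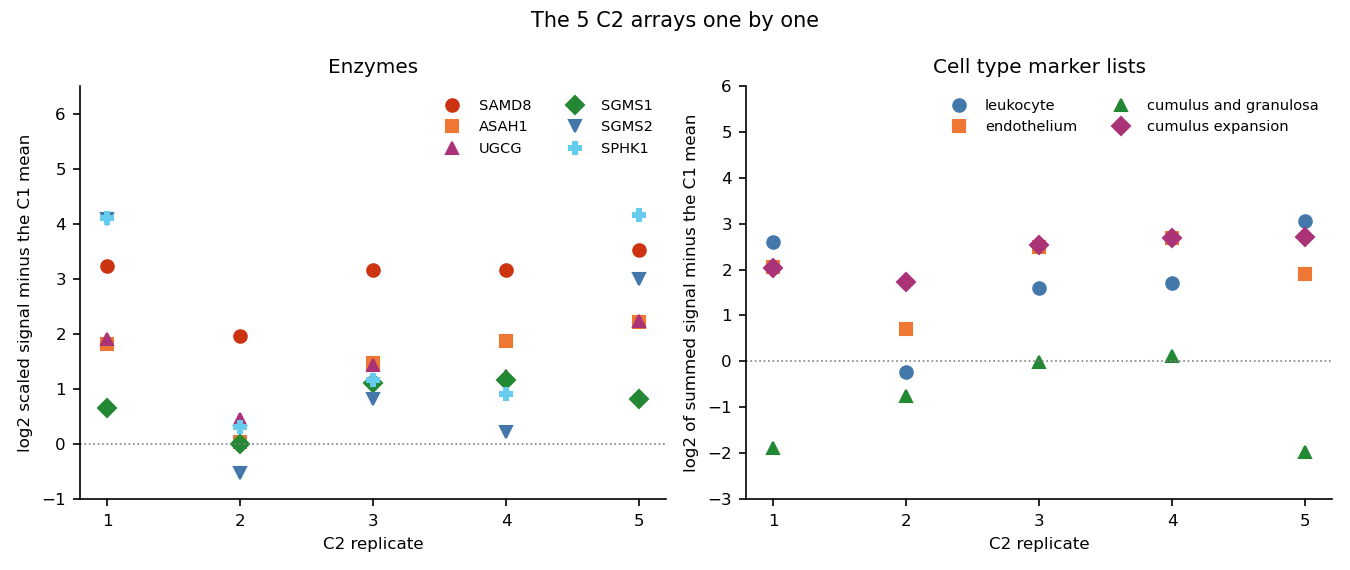
The C2 arrays one by one (x axis, replicate number). On the left is the log2 scaled signal of each enzyme minus its C1 mean, on the right the log2 of the summed signal of 4 marker lists minus the C1 mean of the list. SGMS2 and SPHK1 are high in replicates 1 and 5, where the leukocyte sum is highest and the cumulus and granulosa sum lowest, and SAMD8 lies above 0 in all 5.

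UGCG, the Golgi enzyme that adds glucose to ceramide and so starts glycosphingolipid synthesis, rose by both of its probes. The brighter probe ranged from 2.93 to 3.37 with a median of 3.07 at NC1 and from 2.41 to 3.30 with a median of 2.84 at C1. At C2 it read 4.80, 3.36, 4.34, 4.13 and 5.13 in replicates 1 to 5. All C2 arrays lay above all C1 arrays, and replicate 2 alone reached into the NC1 range. The rise was 2.74-fold against C1, at 1.45 ± 0.25 (log2, SE) with a limma adjusted p of 0.000162, and 2.38-fold against NC1, with a limma adjusted p of 0.0007. Within scan days the difference from C1 was 1.61 and 1.26, and on the arrays of scan day 1 alone it missed the threshold, at a limma adjusted p of 0.0249 against C1 and 0.0383 against NC1. On scan day 2 alone it missed it against NC1, at 0.0119. Of all valid probes, 9.82% passed against C1 and 10.1% against NC1 on scan day 1, and 25.1% against NC1 on scan day 2. The second probe, whose name in the files comes with the full name of the gene and a LOC number not held in the gene list used here, read 2.96, 2.17, 2.00, 1.44 and 2.44 at C2, above all arrays of both other stages. It gave a rise of 0.96 (log2) against C1 with a limma adjusted p of 0.00171, and of 1.09 against NC1 with a limma adjusted p of 0.000596.

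Serine palmitoyltransferase, the first enzyme of ceramide synthesis, is built from SPTLC1 and SPTLC2. SPTLC1 ranged from 6.19 to 7.11 with a median of 6.36 at NC1 and from 5.97 to 6.80 with a median of 6.29 at C1, and read 6.73, 6.10, 6.89, 6.96 and 6.73 in C2 replicates 1 to 5. The stages overlapped. The difference of 0.38 (log2) between C2 and C1 had a 95% confidence interval from -0.07 to 0.83 and a limma adjusted p of 0.172. The 2 probes that carry the SPTLC2 name with a LOC number were well above background on 1 and on 0 of the 17 arrays, and no stages are compared by them.

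Another probe, named in the files by an expressed sequence tag and described as SPTLC2, lies outside the naming rule and was added after its values were seen. It ranged from 1.48 to 2.55 at NC1 with a median of 2.13 and from 1.73 to 2.51 at C1 with a median of 2.10. At C2 it read 3.93, 3.13, 4.17, 4.33 and 3.78 in replicates 1 to 5. All C2 arrays were above all arrays of the other stages. The rise was 3.37-fold against C1 with a limma adjusted p of 9.52e-06, and 3.44-fold against NC1 with a limma adjusted p of 8.31e-06. The gap of SPTLC1 less SPTLC2 read by this probe differed at C2 by -1.38 (log2) from C1 and by -1.60 from NC1, given as a description since the probe was chosen with its values known. These p-values of the tag probe are likewise not independent evidence.

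C2 replicate 2 gave the lowest C2 value for the lead probes of SPTLC1, SAMD8, SGMS1, SGMS2, SMPD2, ASAH1, SPHK1 and UGCG and for the SPTLC2 tag probe, and not for SMPD1. Without it, 6 of the 9 genes passed the threshold against C1 and 4 against NC1, beside 30.8% and 30% of all valid probes in the same fit.

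The profile most like that of SAMD8 over the 17 arrays was that of ARPC1B, a subunit of the actin-branching complex, with a Pearson's r of 0.987, given as a description over arrays that share 3 stages. TWF1, an actin-binding protein, followed with 0.985, and PCOLCE2, which promotes collagen processing, with 0.983. GNA12, a G protein subunit, reached 0.983 and SAT1, which acetylates polyamines, 0.982.

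Other genes of sphingolipid metabolism were taken from 7 lists of 60 genes in all, of which 51 had a probe and 39 a valid one. Against C1, 6 of the 39 were higher at C2 and 3 were lower, or 23.1%, beside 28.1% of all valid probes. Against NC1, 7 were higher and 3 lower, or 25.6%, beside 28.1%. Between C1 and NC1 limma called none of the 39, and 3 had an unadjusted p under 0.05. The share called among these genes was thus no higher than among all probes.

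**Figure D4:**
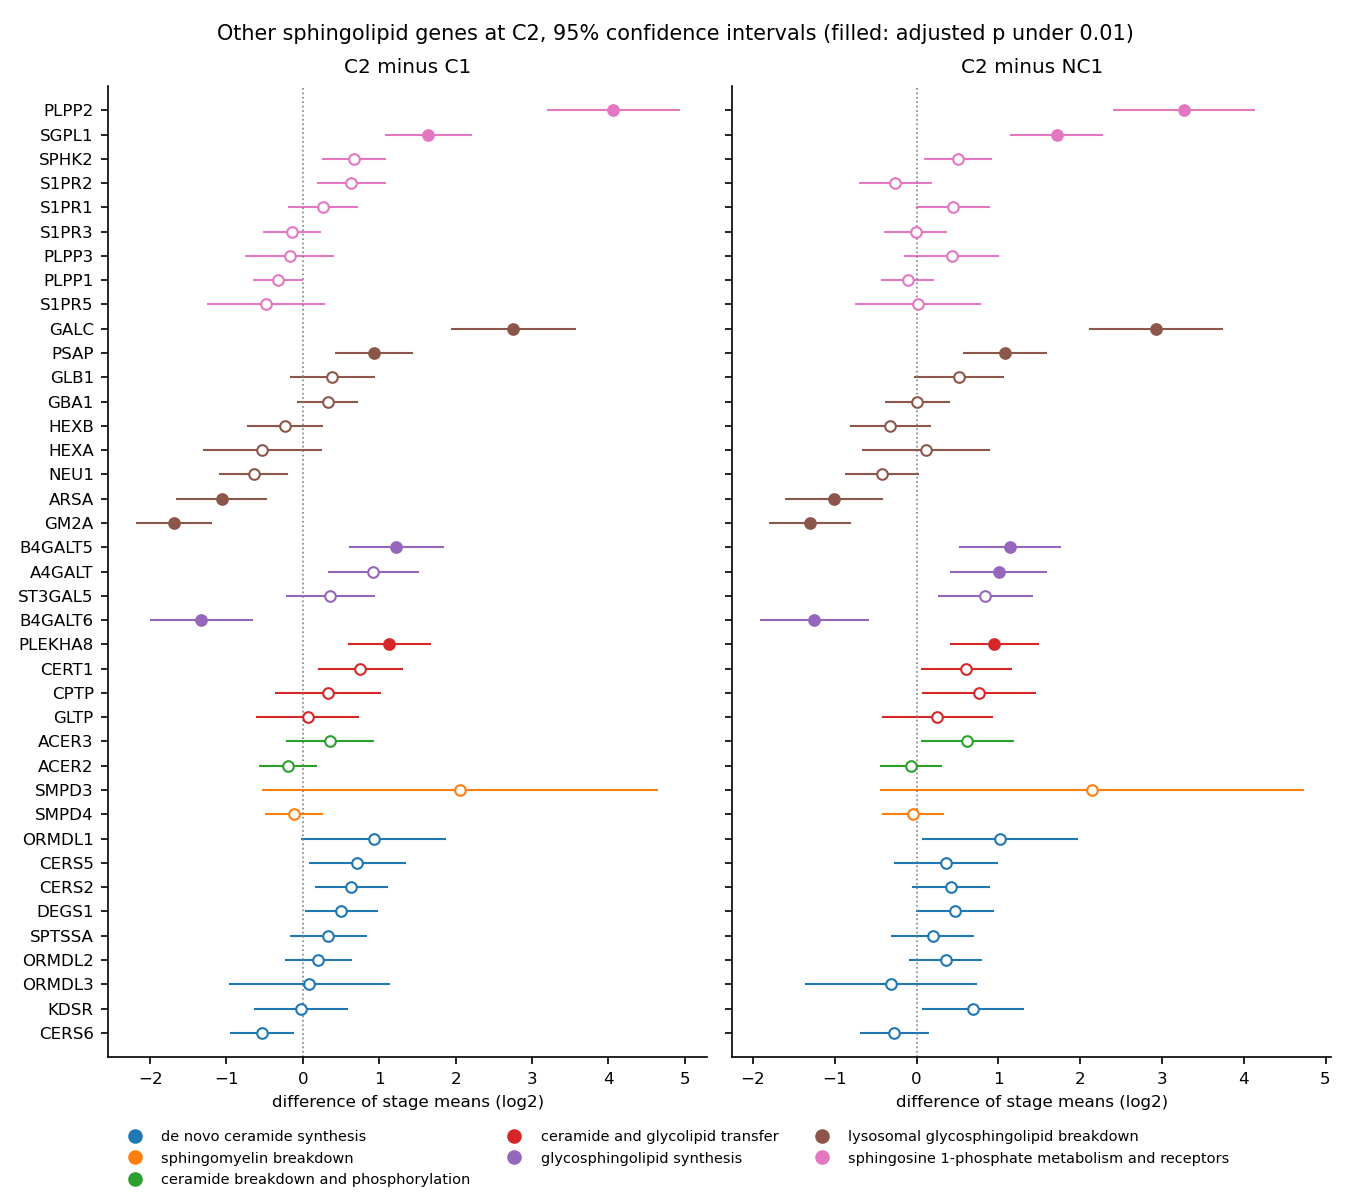
Difference of stage means (x axis, log2) of the brightest valid probe of 39 other sphingolipid genes (y axis, coloured by list), C2 minus C1 on the left and C2 minus NC1 on the right, with unadjusted 95% confidence intervals and filled points where the limma adjusted p is under 0.01. PLPP2 and GALC lie furthest to the right among the called genes, and GM2A, B4GALT6 and ARSA to the left.

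The genes of sphingosine 1-phosphate metabolism and its receptors held 2 called genes of the 9 with a valid probe in each comparison, both higher, or 22.2% beside 28.1% of all valid probes. PLPP2, a membrane phosphatase of lipid phosphates, ranged from -0.69 to 0.85 at C1 and from -0.07 to 1.21 at NC1. At C2 it read 5.35, 2.98, 3.88, 3.19 and 5.04 in replicates 1 to 5, above all other arrays. It was 16.7-fold higher than at C1 (limma adjusted p = 4.68e-07) and 9.63-fold higher than at NC1 (limma adjusted p = 6.01e-06). SGPL1, the lyase that degrades sphingosine 1-phosphate, was read by an expressed sequence tag probe that ranged from 0.28 to 0.76 at C1 and from 0.13 to 0.81 at NC1. It read 1.42, 2.00, 3.13, 2.87 and 1.51 at C2, with no overlap with either stage, and was 3.12-fold higher than at C1 (limma adjusted p = 9.47e-05). Another SGPL1 probe was not valid, being detected on 2 NC1, 6 C1 and 4 C2 arrays. In limma without the filter it missed the threshold, with a difference of 0.30 from C1 (adjusted p = 0.507) and 0.92 from NC1 (adjusted p = 0.042). The kinase SPHK2 read 5.16 to 5.39 at C2, above the C1 arrays at 4.31 to 4.97, for a difference of 0.67 with a limma adjusted p of 0.0122. SGPP2, of the same list, was not valid, being detected on 6 NC1, 6 C1 and 2 C2 arrays. In limma without the filter it was lower at C2 than at NC1, by -3.08 (log2, adjusted p = 0.000921). Its difference from C1 was -1.32 (adjusted p = 0.113).

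Lysosomal glycosphingolipid breakdown held 2 genes that rose and 2 that fell among 9 in each comparison, or 44.4% beside 28.1% of all valid probes. GALC, the lysosomal enzyme that removes galactose from galactosylceramide, ranged from 1.27 to 2.61 at C1 and from 1.30 to 2.13 at NC1. At C2 it read 5.35, 2.89, 4.59, 4.58 and 6.01, above every array of the other stages. It was 6.74-fold higher than at C1 (limma adjusted p = 1.85e-05) and 7.60-fold higher than at NC1 (limma adjusted p = 9.80e-06). PSAP, the precursor of the saposins that assist these enzymes, rose by 0.93 (log2) against C1 and 1.08 against NC1 without overlap. GM2A, the activator protein of ganglioside breakdown, fell: it ranged from 5.31 to 6.40 at C1 and from 5.01 to 5.80 at NC1, and read 4.31, 4.27, 3.30, 3.90 and 4.53 at C2. All C2 arrays of GM2A lay below all others, by -1.69 (log2) against C1 on average with a limma adjusted p of 1.9e-05. ARSA, the sulfatase that acts on sulfatide, fell by 1.06 on the log2 scale against C1 with a limma adjusted p of 0.00605, with overlapping arrays.

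Glycosphingolipid synthesis downstream of UGCG went both ways. B4GALT5 and B4GALT6 both add galactose to glucosylceramide. B4GALT5 was 2.34-fold higher at C2 than at C1 (limma adjusted p = 0.00297), with 4 C2 arrays above all C1 and NC1 arrays and replicate 2, at 4.73, below all of them. B4GALT6 was lower, by -1.33 (log2) against C1 with a limma adjusted p of 0.00277 and by -1.25 against NC1 with 0.00443. Its C2 arrays read -1.27, -1.18, 0.19, 0.13 and -1.67, all below the NC1 arrays. A4GALT, which extends lactosylceramide to globotriaosylceramide, was higher at C2 than at NC1 by 1.00 (log2) with a limma adjusted p of 0.00851. Of the 4 transfer proteins, PLEKHA8, which carries glucosylceramide, was higher by 1.13 against C1 and 0.95 against NC1, without overlap, with limma adjusted p of 0.00184 and 0.0067. CERT1, which carries ceramide to the sphingomyelin synthases, differed by 0.75 against C1 with a limma adjusted p of 0.0303. Some of these calls lay near the threshold: of 29 alternatives, the calls against C1 were lost in 8 for ARSA, 9 for PSAP, 4 for B4GALT5 and none for B4GALT6 and PLEKHA8. Those against NC1 were lost in 18 for A4GALT, 17 for ARSA, 3 for PSAP, 8 for B4GALT5, 5 for B4GALT6 and 10 for PLEKHA8.

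De novo ceramide synthesis, beside the SPTLC genes, had 9 measured genes and none passed the threshold in limma in any comparison, while 4 had an unadjusted p under 0.05 between C2 and C1 and 2 between C2 and NC1, beside 49% and 48.5% of all valid probes. The ceramide synthase CERS2 differed by 0.64 (log2) and CERS6 by -0.53 against C1, with limma adjusted p of 0.0321 and 0.0403. For ceramide breakdown, ACER3, an alkaline ceramidase, gave different calls by its 2 valid probes. The brighter differed by 0.36 (log2) from C1 with a limma adjusted p of 0.319, and the dimmer was higher by 1.07 with a limma adjusted p of 0.0021. Among the other sphingomyelinases SMPD4 and SMPD3 neither passed the threshold in limma, and neither had an unadjusted p under 0.05. SMPD3, a neutral sphingomyelinase picked out here after its values were seen, read -4.59, 5.27, 3.01, 1.79 and -3.48 in C2 replicates 1 to 5, against -2.55 to -0.92 at C1. Its replicates 1 and 5 were below and its replicates 2, 3 and 4 above all C1 arrays, the reverse of the order of SGMS2 and SPHK1 for replicates 1 and 5, and it was detected in 4 of the 5 C2 arrays.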

How the data were processed

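Each of 17 samples was hybridised to 1 Cy3-labelled Agilent bovine array. The authors deposited spot intensity values from Agilent Feature Extraction 10.5.1.1 (submitters' processing notes), with background subtracted and no scaling between arrays. A second file deposited by the authors holds log2 values of 15256 probes, scaled by the median of the array, and served as an alternative. For 99% of its probes it was within 2.03e-06 of the values computed here after a constant per array.

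Here log2 of the processed signal was averaged over each probe's replicate spots, without outlier and non-uniform spots, and the array median over non-control probes was subtracted. A probe was detected when at least 50% of its spots were well above background, uniform and unsaturated. Stages were compared with lmFit and eBayes of limma 3.58.1 in R 4.3.3, checked on simulated data, with p-values adjusted by Benjamini-Hochberg over 13865 valid probes. Gaps between 2 genes within arrays were tested by exact permutation in scipy 1.17.1, with a threshold of 0.05 after adjustment.

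The number of arrays limits the precision. The p-values set a difference against the spread between arrays and take each array as an independent sample, which is not known for the close C2 arrays. Slides held 1 array of each stage (1 slide had no C2), and arrays were scanned on 2 days. Samples with the same replicate number came from different animals and their deviations correlated between -0.32 and 0.25, so numbers were not taken as pairs. Names follow the files and a RefSeq gene list; the files name no genome build, and no coordinates are given. Named genes are all members by every probe, and other pathway genes past the threshold without overlap between groups. B4GALT5, ARSA, SPHK2, SGPP2, CERT1, CERS2, CERS6, ACER3 and SMPD3 were named after their values were seen. The members and lists were chosen with earlier results of these data known. Marker lists of oocytes, red blood cells and theca and stroma were also read: at C2 against C1, 0 of 4, 0 of 1 and 2 of 9 valid genes were higher, and 0, 0 and 1 lower. Of all valid probes, 15.3% were higher and 12.8% lower. At C2 against NC1, 0, 0 and 1 of these genes were higher and 3, 0 and 1 lower, beside 15.5% and 12.6% of all valid probes. The 3 lower oocyte genes were ZP3, GDF9 and NLRP5. The summed oocyte signal (log2) was 3.43 to 5.15 at C2 and 5.20 to 6.28 at NC1.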

Additional observations from a re-analysis of the deposited data

Results flagged for a closer look

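Of 30 sets of arrays (10 probes in 3 stages), 2 held an array far from the others, where chance flags about 1 in 20. Both were C2 replicate 2. For SAMD8 it read 6.45 (log2 scaled signal), while the other 4 C2 arrays read 7.64 to 8.01. For SPTLC1 it read 6.10, while the others read 6.73 to 6.96.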

How the results depend on the processing

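No change of a member or named gene and no gap that passed its threshold reversed under the alternatives run. The rises of SAMD8, PLPP2, GALC and SGPL1 (by its tag probe) and the fall of GM2A stayed past the threshold in all of theirs, and the gap of SAMD8 less SGMS1 kept its call. The planned gap of SPTLC1 less SPTLC2 could not be had, since the SPTLC2 probes were at background. Scaling by the 75th percentile moved the median change of all valid probes by -0.13 (C2 against C1) and -0.15 (C2 against NC1), quantile normalization by -0.11 (C2 against NC1), and normexp background correction by 0.14 (C1 against NC1). Array weights gave 5 member genes against NC1, 5 among the 3 stages and 1 pathway gene between C1 and NC1. In that fit 29.1% of all valid probes passed against NC1 and 1.72% between C1 and NC1. With the close C2 arrays averaged, 2 member genes were called against C1 and 6 pathway genes against NC1, beside 21.6% and 21.1% of all valid probes. A one-factor test with unequal spreads called 1 member gene among the 3 stages, with no share of all valid probes taken beside it. Leaving out 1 array at a time gave 3 to 6 member genes against C1, 3 to 4 against NC1 and 3 to 5 among the 3 stages, with 6 and 5 without C2 replicate 2, and 7 to 11 and 6 to 10 pathway genes against C1 and NC1, with 6 without NC1 replicate 2, NC1 replicate 6 or C2 replicate 4. In these leave-one-out fits 24.2 to 30.8% of all valid probes passed against C1 and 24.3 to 30% against NC1. The share past the test among the 3 stages was not taken for the alternatives. Their counts among the 3 stages are thus not read as results about the member genes. With the replicate block, 4 member genes were called against C1 and 3 against NC1, as without it, and 7 and 7 pathway genes, where PLEKHA8 and A4GALT against NC1, PSAP against C1 and ARSA in both comparisons missed the threshold. The share of all valid probes with this block was 23.1% against C1 and 22.3% against NC1.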
